A study of Mus musculus with 6 samples.

Results

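The genes described here encode the ephrins, semaphorins, Slits, netrins and repulsive guidance molecules together with their receptors, in the posterior part of mouse embryos. They were chosen by a rule on gene symbols that used no measured value, though earlier results of these data were known. The choice took in 70 genes with 87 probes among the transcript probes of a one-colour CodeLink whole-genome bioarray. Of these, 36 genes encode ligands, 33 encode receptors, and 1, Plxna4os1, is an antisense transcript at a plexin locus that the symbol rule also took in. Probes were tested where they lay above background, by the scanner's own quality flag, on at least 3 of the 6 arrays. This left 70 probes of 62 genes, and 54 of the 62 genes were above background on all 6 arrays.

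The 6 arrays each held RNA of 1 sample, 3 wild type and 3 Splotch null, of a strain labelled LMBc, and all were taken at embryonic day 9.5. The protocol describes cutting away the part of the embryo under the forelimb, and 1 label field calls the tissue posterior neural tube while another calls it anterior. Splotch mice carry a defect of Pax3, which encodes a transcription factor with a paired domain and a homeodomain that is active in dorsal neural tube, dermomyotome and neural crest. The labels gave neither the allele nor the number of embryos per sample, so the p-values measure only the spread between these samples, which may be partly technical.

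Guidance cues steer growing axons, migrating neural crest cells and sprouting vessels by attraction or repulsion. Ephrins are cell-surface ligands of the Eph receptor tyrosine kinases, with ephrin-A proteins held by a lipid anchor and ephrin-B proteins spanning the membrane, and both partners can signal. Class 3 semaphorins are secreted and act through a neuropilin with a plexin, while most other semaphorins are membrane-bound and bind plexins directly. Slits repel cells through Robo receptors, and netrins attract or repel through Dcc, neogenin and the Unc5 receptors. In the trunk of the early embryo, Eph and ephrin signals help to form somite boundaries, and ephrin-B and semaphorin 3 signals keep neural crest out of parts of the somite.

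All intensities below are log2 of the background-subtracted intensity plus 50, quantile-normalized between arrays, so a spot without signal lies near 6 and folds of dim genes are understated. Brightness depends on the probe, so intensities do not order the transcript levels of different genes. Wild type 1 and Splotch null 3 were the brightest arrays, with median raw intensities of 116.3 and 121.1, and the other 4 had medians from 84.3 to 99.7. Of 8 listed caudal genes, 7 were above background on all 6 arrays. Of 7 listed brain genes, Six3, Hesx1, Rax and En2 were also above it on all 6, with Six3 between 10.74 and 11.24, and the other 3, Otx2 and Emx1 among them, on none. The brain list therefore did not settle which of the tissue labels holds. The 10 visceral endoderm and yolk sac markers, 5 of them above background on all 6 arrays, summed to an intensity of 51770 on Splotch null 2, while the other 5 arrays had sums from 1019 to 6235. Splotch null 2 stood apart in this, and its part in the results below was not tested. Without it the differences were -0.23 for Ephb3 and -0.39 for Sema3a.

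No guidance gene passed the test for a difference between Splotch null and wild type. Of the 70 member probes tested with limma over 24434 probes, 0 had a Benjamini-Hochberg adjusted p under 0.05 (over all probes 0 were called, 0%), and 0 of the 62 genes had an unadjusted p under 0.05, against 1.43% of all genes. In Splotch null 35 genes were nominally brighter and 27 dimmer, or 56.5% brighter against 54.96% of all genes. Whether the split of any family given below differs from that of all genes was not tested. The median difference, Splotch null minus wild type, was 0.017 for the guidance genes and 0.017 for all 14315 genes. The genotypes did not overlap for 3 of the 60 genes measured on every array, or 5.0%, against 5.11% of all genes. These were Ephb3 and Efnb1, both dimmer in Splotch null (1.89% of all genes lay that way), and Epha6, brighter (3.22% of all genes). With the authors' normalized intensity, 3 genes were brighter without overlap (4.02% of all genes) and 1 dimmer (1.55%). On that scale Efnb1 and Epha6 were still without overlap, Ephb3 overlapped, and Nrp1 and Unc5d did not. No guidance gene differed by 1.5-fold or more, against 0.594% of all genes.

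The arrays limited how small a difference could be seen. The 95% confidence interval of a guidance gene reached a median of 0.38 on the log2 scale to either side of its difference. For 60 of the 62 genes the whole interval lay within a 2-fold difference in either direction, the exceptions being Sema3a and Nrp2. With an offset of 10, which compresses dim genes less, the interval lay within 2-fold for 54 genes. In bulk tissue, fewer cells of a type and less RNA per cell cannot be told apart.

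**Figure D1:**
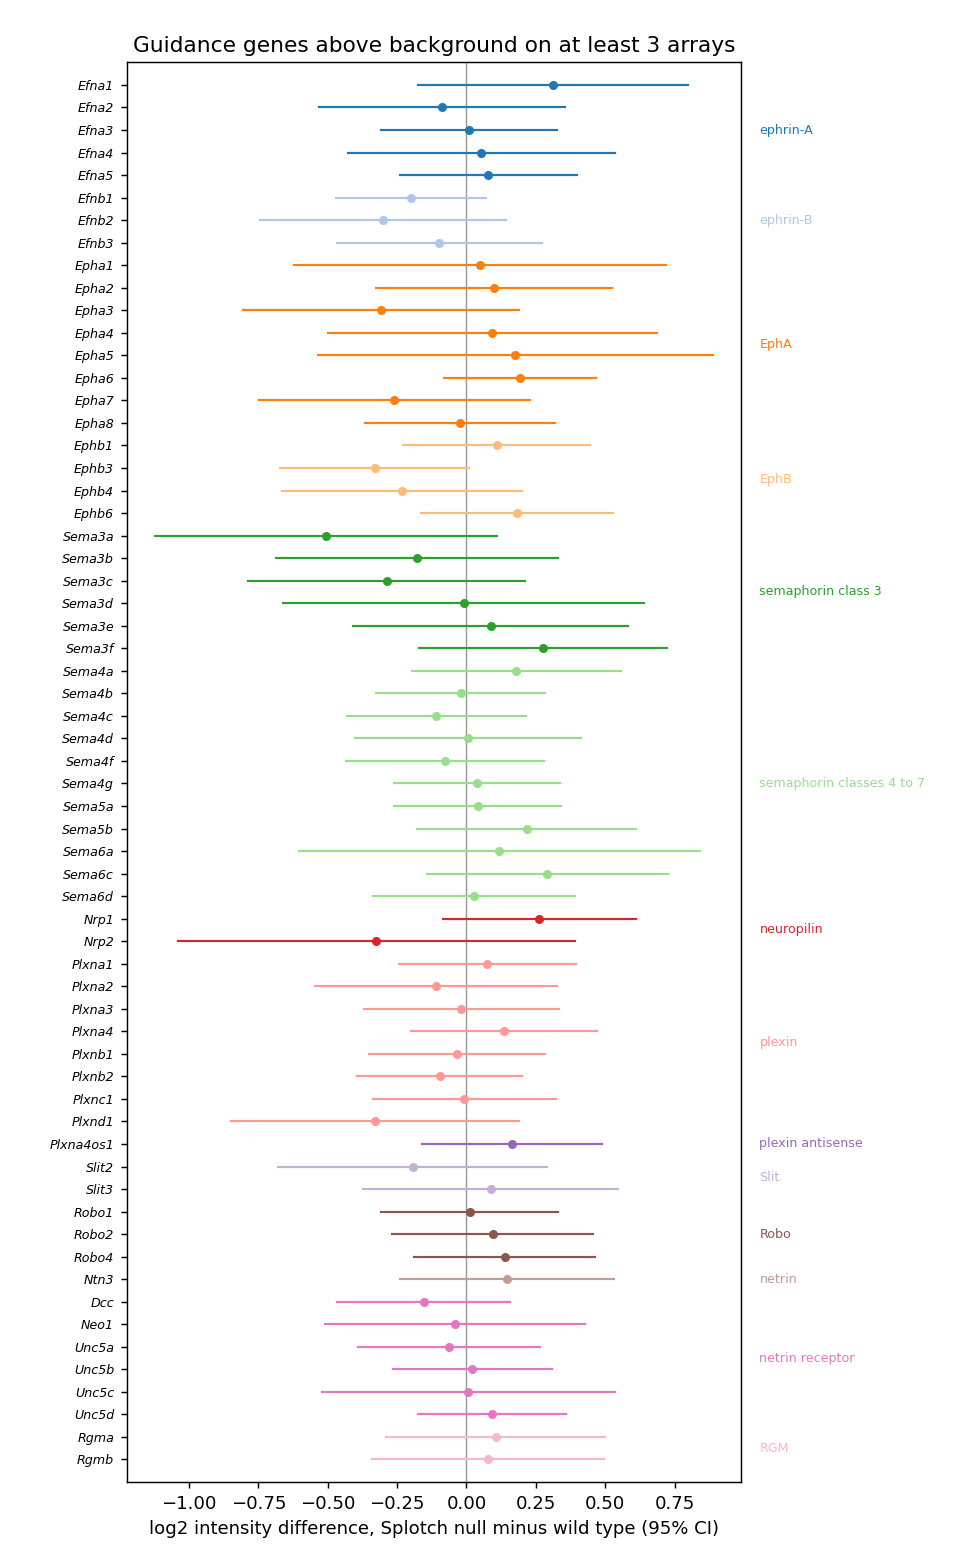
Log2 intensity difference, Splotch null minus wild type (x axis), of the 62 guidance genes tested, grouped by family, with points for the limma estimate and lines for its 95% confidence interval (n = 3 arrays per genotype). The interval included 0 for each of the 62 genes.

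**Figure D2:**
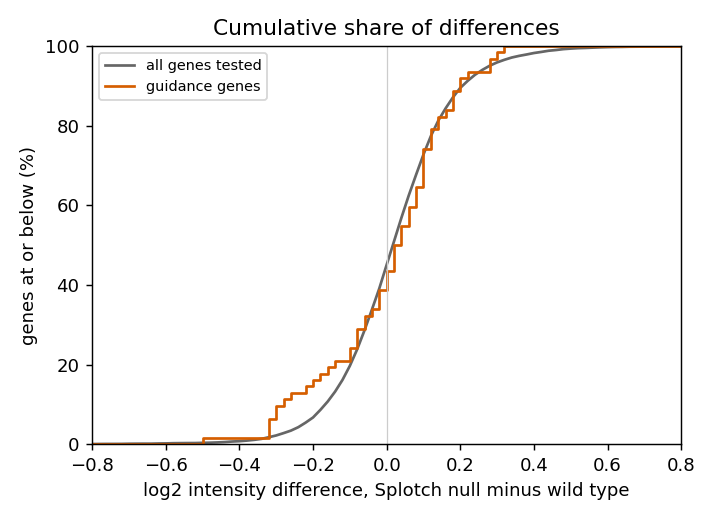
Cumulative share of genes (y axis, %) at or below each log2 difference between Splotch null and wild type (x axis), for the 62 guidance genes (stepped line) and all 14315 genes tested (smooth line). The medians of both were 0.017, and 10% of guidance genes lay below -0.28 against -0.17 for all genes.

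The B-type ephrins were all nominally dimmer in Splotch null, though none passed the test. Efnb1, the ephrin-B1 ligand of somites and neural crest, had log2 intensities of 7.97, 8.11 and 8.13 in wild type 1 to 3 and of 7.88, 7.92 and 7.81 in Splotch null 1 to 3. All 3 null values lay under the lowest wild-type value. The difference was -0.20 (SE 0.11), and its 95% confidence interval ran from -0.47 to 0.070. The exact permutation p (two-sided) was 0.1, the smallest that 3 against 3 allows. Efnb2, ephrin-B2 of the caudal half-somite and of arterial endothelium, had 6.86, 6.55 and 6.97 in wild type and 6.48, 6.20 and 6.78 in Splotch null. Its groups overlapped, and it was above background on all 3 wild-type arrays but on only 1 null array. Its difference was -0.30 (SE 0.19), and -0.45 (SE 0.18) without Splotch null 3. That was the null array above background, so both null values kept were below it. Efnb3, a ligand of the neural tube midline, had 10.99, 10.53 and 10.56 in wild type and 10.69, 10.57 and 10.53 in Splotch null. Wild type 1 stood above the other 5 arrays, and the difference of -0.097 (SE 0.16) became 0.088 without the 2 brightest arrays.

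Among the receptors of B-type ephrins, Ephb3 had the lowest unadjusted p of all guidance genes, 0.055 with limma (adjusted p = 1.0). Its intensities were 9.15, 8.90 and 9.00 in wild type and 8.86, 8.48 and 8.73 in Splotch null. The groups did not overlap, although wild type 2 and Splotch null 1 lay close together. The difference was -0.33 (SE 0.14, 95% confidence interval -0.67 to 0.0093), or 1.26-fold. It lay between -0.42 and -0.23 over 18 other settings, with the smallest size without Splotch null 2. Ephb4, the venous receptor of ephrin-B2, had 9.70, 9.26 and 9.60 in wild type and 9.40, 8.99 and 9.48 in Splotch null. Here the groups overlapped, the lowest value of each genotype being its replicate 2. The difference of -0.23 (SE 0.18) was -0.084 without Splotch null 2 and -0.37 without wild type 2. Ephb1 differed by 0.11 (SE 0.14), and Ephb6, a receptor whose kinase domain is inactive, by 0.18 (SE 0.15).

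The proximal promoter of Ephb3, as the RefSeq annotation of GRCm38.p6 places it (chr16:21204545-21204844, + strand), is shown because this gene had the lowest p. Of its bases, 66.7% were G or C. It held no match to the PAX paired-domain core GTCACGC or to the homeodomain pair motifs, TAAT and ATTA with 2 or 3 bases of any kind between them, searched on both strands, which says only that these letters are not in this window.
Ephb3: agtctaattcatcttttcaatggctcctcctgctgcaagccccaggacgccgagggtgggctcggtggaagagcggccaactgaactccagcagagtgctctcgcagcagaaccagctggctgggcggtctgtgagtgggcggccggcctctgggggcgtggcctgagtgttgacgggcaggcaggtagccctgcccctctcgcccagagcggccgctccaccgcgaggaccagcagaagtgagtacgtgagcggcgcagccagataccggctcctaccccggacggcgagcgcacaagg

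The A-type ephrins included 4 genes nominally brighter and 1 dimmer in Splotch null. Efna1, a ligand also of vessels, had 8.56, 8.68 and 9.00 in wild type and 8.97, 9.44 and 8.77 in Splotch null. Splotch null 2 was the highest array, and the groups overlapped. The difference was 0.31 (SE 0.21), and 0.12 (SE 0.18) without Splotch null 2. Efna3 had 11.15, 11.27 and 11.35 in wild type and 11.43, 11.26 and 11.10 in Splotch null. Its genotype means of 11.26 ± 0.10 and 11.27 ± 0.16 (SD, n = 3 each) were nearly equal, with a 95% confidence interval of the difference from -0.31 to 0.32. Efna4 ranged from 8.88 on Splotch null 3 to 9.64 on Splotch null 2. Efna1, Efna3 and Efna4 lie next to each other in the genome with no other coding gene between them. In all 3 genes Splotch null 3 was below Splotch null 1 and 2, yet their differences between genotypes were 0.31, 0.0094 and 0.054. Efna2 differed by -0.088 (SE 0.19) and Efna5, a ligand of topographic mapping in the brain, by 0.079 (SE 0.14), with 0.032 at its second probe.

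Promoter windows from 250 bases before to 50 after the start were found for 58 of the 70 genes. Efna3 was the 1 gene of the 58 with a match to the PAX paired-domain core, at 1.32% of member windows against 2.09% of the 32851 windows of all genes. The homeodomain pair motifs had 0 matches in the 76 member windows, against 0.390% and 0.487% of all windows. Member windows had a median of 64.5% G or C and 20 CG dinucleotides, where all windows, those of noncoding genes included, had 52.7% and 7. The Efna3 window (GRCm38.p6, chr3:89322890-89323189, - strand) is shown with the match, here on the opposite strand, in capitals. The match describes the sequence only.
Efna3: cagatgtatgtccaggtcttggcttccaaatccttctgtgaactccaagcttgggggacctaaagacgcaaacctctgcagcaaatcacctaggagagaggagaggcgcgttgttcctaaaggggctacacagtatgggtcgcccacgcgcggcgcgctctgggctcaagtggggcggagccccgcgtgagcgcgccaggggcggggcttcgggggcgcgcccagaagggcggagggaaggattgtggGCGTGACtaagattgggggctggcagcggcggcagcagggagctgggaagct

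Receptors of the EphA class split into 5 nominally brighter and 3 dimmer of 8 tested. Epha4, the receptor of rostral presomitic and somite boundaries, had 9.15, 8.83 and 8.95 in wild type and 9.11, 8.54 and 9.56 in Splotch null. The null arrays held both its lowest and its highest value. Epha7, expressed in somites and neural tube, had 9.30, 9.30 and 8.88 in wild type and 8.73, 8.68 and 9.29 in Splotch null. Splotch null 1 and 2 lay below all wild-type arrays and Splotch null 3 among them, for a difference of -0.26 (SE 0.21). It was -0.46 (SE 0.17) without Splotch null 3 and -0.15 without Splotch null 2. Epha6 had 8.33, 8.39 and 8.39 in wild type and 8.66, 8.58 and 8.45 in Splotch null. Every null value was above every wild-type value, with a difference of 0.19 (SE 0.12) and an exact permutation p of 0.1. Epha3, a receptor of axial motor axons, had 8.13, 8.10 and 7.98 in wild type and 8.14, 7.83 and 7.31 in Splotch null. Its difference of -0.31 (SE 0.21) was -0.81 for the 2 brightest arrays and -0.054 for the other 4, and its second probe gave -0.093. Epha1 and Epha5 were among the 4 genes with the widest ranges over the arrays. Epha1 had 8.66, 8.20 and 8.02 in wild type and 8.31, 7.84 and 8.88 in Splotch null. Epha5 had 7.37, 8.27 and 8.34 in wild type and 8.50, 8.26 and 7.75 in Splotch null. Epha1 had its extremes within Splotch null, and Epha5 was lowest on wild type 1 and highest on Splotch null 1. Their genotype differences were 0.048 (SE 0.28) and 0.18 (SE 0.30). That of Epha5 was -0.14 without wild type 1, and that of Epha1 was -0.22 without Splotch null 3.

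**Figure D3:**
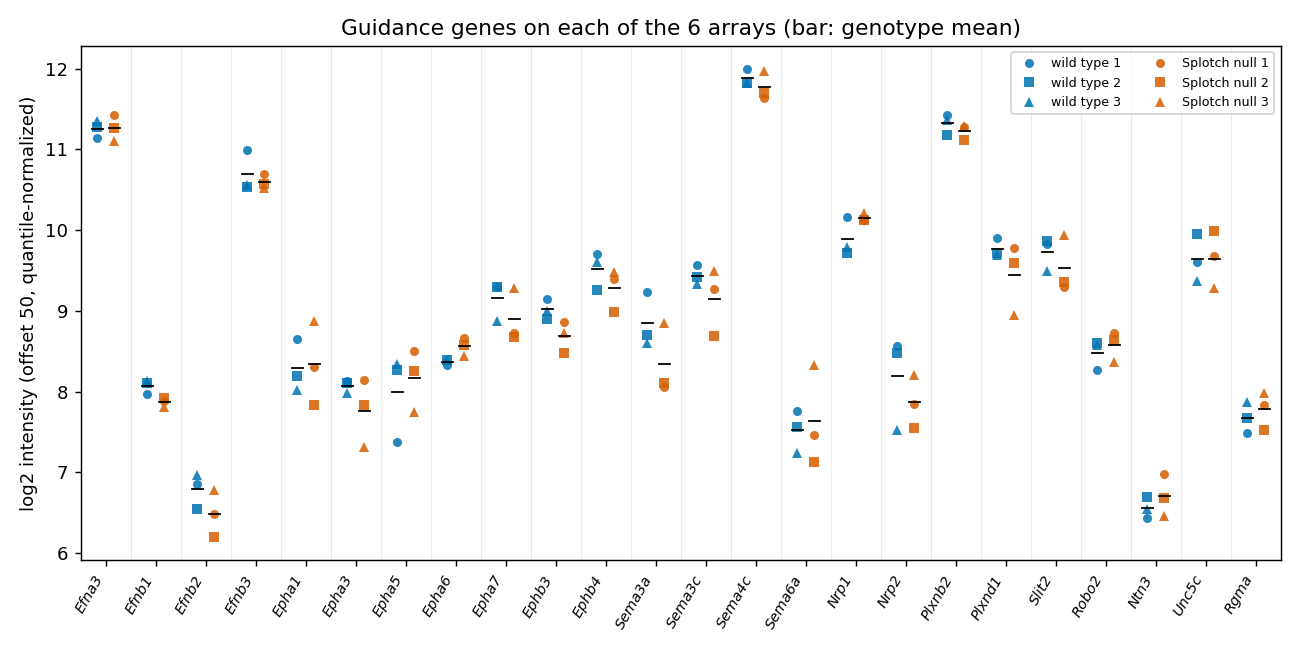
Log2 intensity (y axis, offset 50, quantile-normalized) of 24 guidance genes (x axis) on each array, wild type on the left and Splotch null on the right of each gene, with bars at genotype means and symbols for replicates. The genotypes overlapped for all genes shown except Efnb1, Epha6 and Ephb3, and Splotch null 3 is the lowest array for Plxnd1 and Epha3 and the highest for Epha1 and Sema6a.

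Among the semaphorins, Sema3a had the largest difference of any guidance gene. This secreted repellent of axons and neural crest, which acts through neuropilin-1, had 9.23, 8.70 and 8.61 in wild type and 8.06, 8.11 and 8.85 in Splotch null. Splotch null 1 and 2 lay under all wild-type arrays, and Splotch null 3 lay between wild type 1 and wild type 2. The difference was -0.51 (SE 0.26), with a 95% confidence interval of -1.12 to 0.11, an exact permutation p of 0.3 and an unadjusted limma p of 0.093. Without Splotch null 3 it was -0.76 (SE 0.21), with an unadjusted limma p of 0.0076 and an adjusted p of 0.718. Taken between wild type 1 and Splotch null 3 alone it was -0.38, and the remaining 4 arrays gave -0.57. Over 18 other settings it lay between -0.76 and -0.31, and no guidance probe passed the adjusted threshold in the 17 of these that tested probes. Sema3c, a cue of cardiac neural crest and vessels, had 9.56, 9.42 and 9.33 in wild type and 9.27, 8.69 and 9.49 in Splotch null. Its difference of -0.29 (SE 0.21) was matched by -0.31 at a second probe, but was -0.057 without Splotch null 2, the lowest array.

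The other class 3 semaphorins had no common direction. Sema3d, the next coding gene to Sema3a in the genome, had 8.07, 7.66 and 7.61 in wild type and 7.57, 7.36 and 8.39 in Splotch null. As for Sema3a, wild type 1 and Splotch null 3 were its highest arrays, but its genotype difference was -0.010 (SE 0.28). Sema3e, a ligand that binds plexin-D1 on endothelium directly, had 9.09, 9.09 and 8.97 in wild type and 8.84, 8.96 and 9.61 in Splotch null. Splotch null 3 alone stood apart there, and the difference was 0.087 (SE 0.21). Sema3b, above background on 5 arrays, differed by -0.18 (SE 0.22). Sema3f, a ligand of neuropilin-2, differed by 0.28 (SE 0.19) and was above background on only 3 arrays.

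The semaphorins of classes 4 to 7 had 8 genes nominally brighter and 3 dimmer of 11 tested, with differences from -0.11 to 0.29. Sema4c, a plexin-B2 ligand, had 11.99, 11.82 and 11.82 in wild type and 11.64, 11.70 and 11.97 in Splotch null, a difference of -0.11 (SE 0.14). The groups of values intermingled. Sema6a, a transmembrane ligand of plexin-A2 and plexin-A4, had the widest range over the arrays of all guidance genes tested. Its values were 7.76, 7.56 and 7.24 in wild type and 7.46, 7.13 and 8.33 in Splotch null. Splotch null held both extremes, so the difference of 0.12 (SE 0.31) turned to -0.23 without Splotch null 3. Sema6c, at 0.29 (SE 0.19), was above background on 3 arrays only. Sema6d and Sema4g, each with 2 tested probes, differed by 0.027 and 0.039 at the brighter probe and by 0.022 and -0.023 at the other. Sema6b and Sema7a were above background on no array.

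The 2 neuropilins, the ligand-binding receptors of class 3 semaphorins, lay in opposite directions. Nrp1, which binds Sema3a and vascular endothelial growth factor, had 10.16, 9.72 and 9.80 in wild type and 10.12, 10.12 and 10.22 in Splotch null. Only wild type 1 reached the null values. The difference was 0.26 (SE 0.15), and without wild type 1 the genotypes did not overlap and it was 0.40 (SE 0.13), with an unadjusted limma p of 0.023 and an adjusted p of 1.0. Leaving out wild type 1, the highest wild-type array of Nrp1, widens its difference and removes the overlap by construction. Without wild type 2 the Nrp1 difference was 0.18. Nrp2 had 8.56, 8.48 and 7.53 in wild type and 7.85, 7.55 and 8.21 in Splotch null. Wild type 3 and Splotch null 2 were low alike, and the difference of -0.32 (SE 0.30) was -0.66 (SE 0.21) without wild type 3. Leaving out wild type 3, its lowest array, widens the difference by construction. Whether the opposite directions of Nrp1 and Nrp2 differ from each other was not tested.

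Of the plexins, 2 genes were nominally brighter and 6 dimmer of 8 tested. Plxnd1, the endothelial receptor of Sema3e, had 9.90, 9.71 and 9.70 in wild type and 9.78, 9.59 and 8.95 in Splotch null. Splotch null 3 alone was low, and the difference of -0.33 (SE 0.22) was -0.95 for the 2 brightest arrays and -0.020 for the other 4. Of 10 endothelial markers, 9 were above background on all 6 arrays. On Splotch null 3, 6 of the 10 were at their lowest, Cldn5 and Tie1 among them, and 4, Cdh5, Pecam1, Emcn and Flt1, were not. Their summed intensity, to which bright probes contribute most, was 3822 on Splotch null 3, 6291 and 7712 on the other null arrays and 5545 to 7564 in wild type. Their part in the Plxnd1 values was not tested. Plxnb2, needed for neural tube closure in mice, had 11.43, 11.18 and 11.37 in wild type and 11.28, 11.11 and 11.29 in Splotch null. Its values intermingled, with a difference of -0.096 (SE 0.13, 95% confidence interval -0.39 to 0.20). Plxna2, a semaphorin receptor of crest and neurons, differed by -0.11 (SE 0.19) and Plxna4 by 0.14 (SE 0.14). The antisense transcript Plxna4os1 differed by 0.16 (SE 0.14). Plxnb3 was above background on no array.

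In the Slit and Robo system, Slit2, a floor plate repellent, had 9.82, 9.86 and 9.49 in wild type and 9.29, 9.36 and 9.94 in Splotch null. Splotch null 1 and 2 lay under all wild-type arrays, but Splotch null 3 was the highest of all. The difference was -0.19 (SE 0.21), -0.40 (SE 0.16) without Splotch null 3 and -0.073 without Splotch null 1. A second, dimmer probe gave -0.016. Slit3 spanned 8.14 in Splotch null 3 and 8.83 in Splotch null 2, with a difference between genotypes of 0.087 (SE 0.20). Robo2, a receptor of Slits, had 8.27, 8.61 and 8.57 in wild type and 8.72, 8.64 and 8.37 in Splotch null, a difference of 0.095 (SE 0.15). Robo1, its neighbour in the genome, differed by 0.012 (SE 0.14), with all 6 arrays between 8.32 and 8.64. Robo4, an endothelial receptor, differed by 0.14 (SE 0.13) with 5 usable spots, wild type 3 being left out. The Slit1 probes were above background on 2 arrays and on none, and were not tested.

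The netrin ligands were mostly at background. Ntn1, the netrin of the floor plate, lay between 5.76 and 6.15 and was above background on no array, as was Ntn4. Ntn5 was above it on 2 arrays. Ntn1 was read by 1 probe, and whether that probe responds to its transcript was not tested. Of 6 floor plate and notochord markers, 2, Shh and Foxa2, were above background on all 6 arrays, and 1, Foxj1, on none. Ntn3 was the 1 netrin tested, with 6.43, 6.70 and 6.55 in wild type and 6.98, 6.68 and 6.46 in Splotch null. Its difference was 0.15 (SE 0.16), with overlap. Without the filter on dim probes, Slit1 differed by 0.45 (SE 0.16) and Ntn5 by -0.41 (SE 0.14), with unadjusted limma p of 0.026 and 0.019 and an adjusted p of 1.0 for both. Their probes lay between 5.77 and 6.68 on all arrays, close to the level of a spot without signal.

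Of the 6 netrin receptors, all tested, 3 were nominally brighter and 3 dimmer in Splotch null. Unc5c, a repulsive netrin receptor, had 9.60, 9.95 and 9.37 in wild type and 9.68, 9.99 and 9.28 in Splotch null. Its range within each genotype was wide, and the means of 9.64 ± 0.29 and 9.65 ± 0.35 (SD, n = 3 each) lay close together. Unc5b, the family member of vessels, stayed between 9.36 and 9.61 on all arrays, a difference of 0.022 (SE 0.12). Unc5d differed by 0.091 (SE 0.11) and Unc5a by -0.062 (SE 0.14). Dcc, the attractive netrin receptor, differed by -0.15 (SE 0.13), with intensities between 6.48 and 6.83. Neo1, neogenin, which binds netrins and repulsive guidance molecules, had 9.05, 8.54 and 8.71 in wild type and 8.65, 8.48 and 9.06 in Splotch null. Wild type 1 and Splotch null 3 were its high arrays, and the difference was -0.040 (SE 0.20).

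Of the repulsive guidance molecules, Rgma, a neogenin ligand whose loss can disturb cranial neural tube closure in mice, had 7.49, 7.67 and 7.88 in wild type and 7.84, 7.53 and 7.99 in Splotch null. The values intermingled, with a difference of 0.11 (SE 0.17) that became -0.092 without the 2 brightest arrays. Rgmb, a co-receptor of bone morphogenetic proteins, differed by 0.077 (SE 0.18).

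The direction of many differences rested on single arrays. For 30 of the 62 guidance genes the sign changed when some array was left out. The same count was not made over all genes, so it cannot be read as particular to the guidance genes. The median range over the 6 arrays was 0.51 for guidance genes and 0.52 for all genes, and the median size of the difference 0.10 and 0.093. The bright arrays, wild type 1 and Splotch null 3, were the 2 highest for 15 of 60 genes, among them Epha1, Epha4, Neo1, Nrp1, Sema3a, Sema3c, Sema3d and Sema6a. This was 25.0% of the guidance genes and 22.5% of all genes. The same arrays were the 2 lowest for 10 genes, among them Efna3, Efna4, Epha5, Slit3 and Sema6d, or 16.7% against 25.3% of all genes. Splotch null 2 was the lowest array for 18 of 60 genes, or 30.0% against 17.7% of all genes. The contrast taken between the 2 brightest arrays had the opposite sign to that between the other 4 for 31 of 60 guidance genes, or 51.7%, against 50.4% of all genes.

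**Figure D4:**
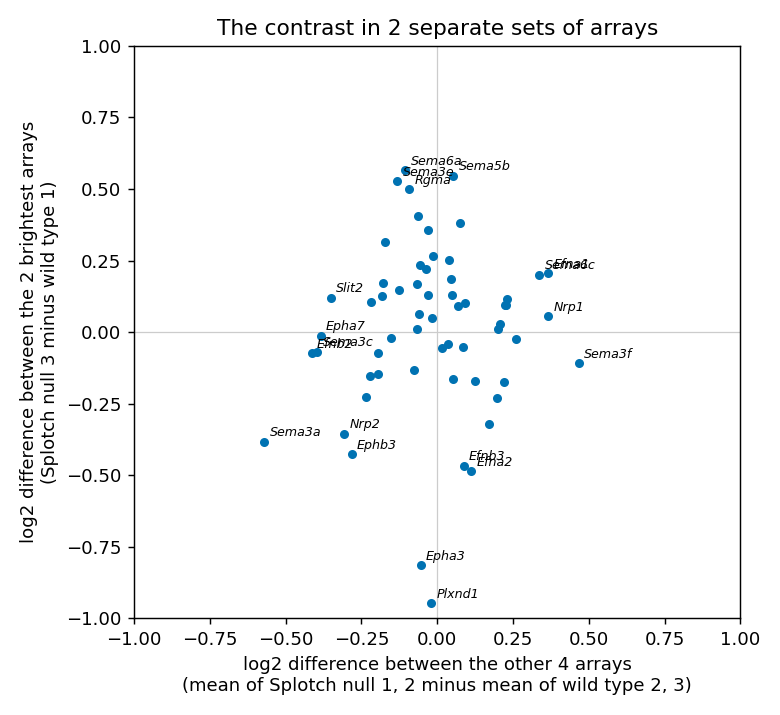
Log2 difference, Splotch null minus wild type, for the 2 brightest arrays (y axis) and for the other 4 arrays (x axis), for 60 guidance genes measured on all arrays, 1 point per gene. The signs were opposite for 31 genes. Sema3a, Nrp2 and Ephb3 lie at the lower left, and Plxnd1 and Epha3 at the bottom centre.

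Several of these values rested on Splotch null 3. Without it the genotypes did not overlap for 18 of 60 guidance genes, or 30.0%, where 25.5% of all genes did so with 3 against 2 arrays. Of the 18, 11 were dimmer and 7 brighter in Splotch null, while 11.0% of all genes lay apart as dimmer and 14.6% as brighter. Whether the members' split differs from that of all genes was not tested. The median difference was then -0.047 against 0.028 for all genes. An unadjusted limma p under 0.05 was reached by 4 guidance genes, Sema3a, Epha7, Efnb2 and Slit2, all dimmer, where 3.91% of all genes reached it, and 0 had an adjusted p under 0.05. In these 4 genes Splotch null 3 was the highest null array, so leaving it out widened their differences by construction. For Efnb2 it was also the only null array above background. Without both bright arrays, 23 of 60 guidance genes did not overlap (33.9% of all genes), and 3 had an unadjusted limma p under 0.05 (3.04% of all genes), Sema3a, Nrp1 and Sema3f. For Nrp1 this left out wild type 1, the only wild-type array that reached its null values. For Sema3f, Splotch null 2 was the only remaining array above background, so its difference there rested on values near background. With log2 array median as a covariate, Sema3a differed by -0.45 (SE 0.11) and Ephb3 by -0.32 (SE 0.13), with adjusted limma p of 0.889 for both.

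The neural crest markers lay apart between the genotypes. Their summed intensity, over 8 genes, was 3141 to 3748 in wild type and 2787 to 2977 in Splotch null, without overlap, with 7 of the 8 above background on all arrays and none at background on every array. That of 6 somite markers was 3319 to 5092 and 2934 to 3767. That of 7 neuronal markers was 1981 to 2134 in wild type and 2101 to 2892 in Splotch null. Bright probes contribute most to such sums, and the neuronal sum rested mainly on Isl1, with log2 intensities of 10.64 to 11.17. The log2 differences of the 7 neuronal markers ran from 0.038 for Elavl3 to 0.32 for Isl1. The part of these cell types in the Sema3a, Ephb3, Efnb1 and Efnb2 values was not tested.

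Genes that act with or below the receptors were taken from a list. Of 80 listed kinases, adaptors, cytoskeletal regulators and co-receptors, 77 were on the array and 72 were tested. Of the 72, 40 were nominally brighter and 32 dimmer in Splotch null, where 54.96% of all genes were brighter. Their median difference was 0.0080. The adjusted threshold was passed by 0. Rnd3 was the 1 gene of the 72 with an unadjusted limma p under 0.05 (0.015, adjusted p = 1.0), against 1.43% of all genes. It had 8.46, 8.46 and 8.28 in wild type and 8.77, 8.70 and 9.01 in Splotch null, all null values being higher, a difference of 0.43 (SE 0.13). Gpc1, a glypican that binds Slits, had 10.82, 10.57 and 10.68 in wild type and 10.55, 10.08 and 10.51 in Splotch null. These groups did not overlap either, by a narrow gap, with a difference of -0.31 (SE 0.16). In all, the genotypes of 3 effector genes did not overlap upward and those of 3 did not overlap downward, of 70 measured on all arrays, against 3.22% and 1.89% of all genes.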

How the data were processed

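Total RNA of 3 wild-type and 3 Splotch null samples was amplified, labelled with biotin and hybridised to 1 array each, per the labels' protocols. Per the file headers, CodeLink Expression Analysis gave each spot the deposited raw intensity, and a second intensity scaled to the array's global median. Raw values reached below 0, so a background had been subtracted, in a way not given in the sources used here. Dividing the authors' deposited value table by that scaled intensity gave 1 factor per array, from 0.996 to 1.0035.

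From there, spots with flag G, L or S were kept (277 to 422 of 34967 per array had other flags), raw intensity was floored at 0, an offset of 50 was added, and log2 values were quantile-normalized. Probes with flag G or S on at least 3 arrays and at least 2 usable spots per genotype entered limma (version 3.58.1, R 4.3.3) with Benjamini-Hochberg adjustment over all probes. A gene was represented by its tested probe with the highest mean. Names came from GEO's platform annotation, updated by gene identifier to GRCm38.p6 symbols (21487 probes), with 128 platform symbols and 536 names from accessions. No build was given for the arrays.

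The members and lists were chosen with earlier results of these data known. Values on every array are given for the gene with the brightest probe in each family, a choice of what to show and no ranking of levels, the 4 widest ranges, and genes without overlap that differ by at least 0.25, and others named were chosen after their values were seen. Replicate numbers follow accession order and pair nothing. On simulated data for Splotch null against wild type, with 23319 probes, 44% of 200 probes changed 2-fold and 86% of 200 changed 4-fold were recovered. Of the unchanged probes, 6 and 10 were called. The simulated noise was independent between probes and left out the array differences that many genes share here, so these shares may not carry over. Alternatives were median scaling, cyclic loess, both deposited normalized scales, other offsets, filters and variance models, the mean of a gene's probes, arrays left out and array median as a covariate. Figures used matplotlib 3.10.9.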

Additional observations from a re-analysis of the deposited data

How the results depend on the processing

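Under 17 alternative settings 0 guidance probes passed an adjusted p of 0.05. No paired analysis was possible because the replicate numbers follow accession order and pair no samples. The count of guidance genes with an unadjusted limma p under 0.05, which was 0, became 1 with an offset of 200 (1.68% of all genes), 3 with no filter (1.82%), 3 without the 2 brightest arrays (3.04%) and 2 with array median as a covariate (4.72%), and 0 to 4 with each array left out (0.8% to 3.91%). The count of genes without overlap, which was 3, became 6 with no filter (6.16% of all genes) and 23 without the 2 brightest arrays (33.9%), and 6 to 18 with each array left out (9.48% to 25.5%), where fewer arrays make overlap rarer by construction. The count of effector genes with an unadjusted p under 0.05, which was 1, was 2 with an offset of 200 and 2 with the covariate, and 0 to 2 with each array left out. The median difference of the guidance genes lay between -0.047 and 0.051 over 18 settings, and the cause of its change of sign without Splotch null 3 was not tested. Ephb3, Sema3a and Nrp1 kept their sign in all 18, while Unc5c changed sign in 5. The number of arrays limits the precision, and genes near background carry little information.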
